A study of Mus musculus with 6 samples.

Results

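The genes by which fat cells store lipid, break it down, make fatty acids and secrete hormones were followed in Nestin-GFP-positive cells of neonatal mouse skin and its fat layer. The list held 34 genes, found by symbol among the 37991 gene rows of the count files, and all 34 were matched. Of these, 31 passed the filter on low counts and were tested among 15035 genes. Cidea, a droplet protein of brown fat, Lep, the gene of the hormone leptin, and Thrsp, a nuclear protein tied to lipogenesis, had too few reads to be tested.

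RNA was sequenced from 6 libraries of sorted GFP-positive cells, prepared from the dermis and subcutaneous white fat of 3-day-old pups. The 3 control mice carried the Nestin-GFP reporter alone (Nes-GFP). The 3 mutant mice carried the reporter, a Nestin-driven Cre recombinase and 1 allele of PDGFRα with the activating change D842V (Nes-GFP;Nes-Cre;PDGFRα+/[S]D842V). Since the controls as labelled lack Cre, the recombinase and the allele cannot be told apart. The recombinase acts in cells that have used the Nestin promoter, and the sort keeps single cells with Nestin-driven GFP after the epidermis and hair follicles were removed. The series title calls the sorted cells pericytes.

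Mature white fat cells hold triglyceride in a droplet coated by perilipins and CIDE proteins. Fatty acids reach them through lipoprotein lipase and CD36 or are made from acetyl-CoA by the chain ACLY, ACC and FASN, and they leave again through the lipases ATGL, HSL and MGLL. Many of these enzymes are not confined to fat cells, since dividing cells also make fatty acids, and capillary endothelium and muscle also take them up. Adiponectin, leptin, resistin and adipsin are secreted mainly or largely by fat cells in mice.

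The libraries held 11912469 to 18792939 gene counts. Levels are given as CPM, the reads of a gene per 1000000 gene counts of the library after TMM scaling, and comparisons between genes are given per kilobase of exon. Pdgfra, the gene of the altered receptor, had 820.0 to 857 CPM in control and 345 to 369 CPM in mutant libraries, and counts do not tell the alleles apart. All 8 pericyte markers were detected, with a summed level of 1101 to 1371 CPM in control and 1086 to 1369.7 CPM in mutant libraries. The 9 markers of fat cell progenitors and fibroblasts summed to far more, 42734 to 47705 CPM in control and 36284 to 45019.9 CPM in mutant libraries. Col1a1 made up most of this (38254 to 43331 CPM in control and 30623 to 38974 CPM in mutant libraries). Of these 9, Dlk1 rose, and Pdgfra and Dpp4 fell. The share of each cell type among the sorted cells was not tested. The 7 defining markers of mature fat cells summed to 149.9, 154 and 230.2 CPM in control replicates 1 to 3 and to 265, 555 and 247 CPM in mutant replicates 1 to 3. Most of that sum was Fabp4, and Lep was at 0 reads in 4 libraries and 1 read in the other two. In the 3 mutant libraries a count of 0 allows at most 0.16 to 0.199 CPM of Lep, a limit that covers counting error only. Leptin RNA was therefore not detectable at this depth in mutant cells, while Adipoq, Plin1 and Cfd were read in all 6 libraries. Of the 6 tested fat cell markers only Fabp4 rose (16.7%, beside 8.63% of all tested genes), and 5 of the 6 were highest in mutant replicate 2. The groups overlapped for Adipoq, Plin1 and Retn and not for Cidec, Cfd and Fabp4. Markers of some other cell types were higher in mutant libraries. Of 8 endothelial markers 4 rose (50.0%, beside 8.63% of all tested genes). The 8 summed to 153 to 181 CPM in control and 222 to 326 CPM in mutant libraries. Of 8 skeletal muscle markers 7 rose (87.5%, summed level 40.7 to 51.7 and 119 to 180.3 CPM). Of 7 keratinocyte markers 6 rose (85.7%, summed level 476 to 769 and 945 to 1166 CPM). The part of these cells in the values below was not tested. In bulk libraries, fewer cells of a type and less RNA per cell cannot be told apart.

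Across the list, 3 genes rose and 4 fell in mutant cells. The risers were Fabp4, Cd36 and Aqp7, which handle fatty acids and glycerol, and the 4 that fell, Acly, Acaca, Fasn and Elovl6, are consecutive enzymes of fatty acid synthesis. The count of 3 is 9.68% of the tested members, beside 8.63% of all tested genes called higher, and the count of 4 is 12.9% beside 9.13% called lower, so the list as a whole was called about as often as the background. A call is an adjusted p (Benjamini-Hochberg over all tested genes) under 0.05 in edgeR's quasi-likelihood test. The median log2 fold change of mutant over control was 0.20 over the tested members and 0.01 over all tested genes. Leaving out mutant replicate 2 gave a member median of 0.05, and leaving out control replicate 3 or mutant replicate 1 gave 0.35 or 0.32. When control replicate 2 was left out, 1 member was called higher (5.08% of all genes) and 2 lower (5.77%). When mutant replicate 3 was left out, 2 were called higher, Lpl and Aqp7 (4.33%), and 1 lower, Elovl6 (4.95%). DESeq2 called 5 members higher (7.06% of all genes) and 5 lower (8.42%), and limma-voom called 3 higher (8.55%) and 4 lower (8.99%).

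**Figure D1:**
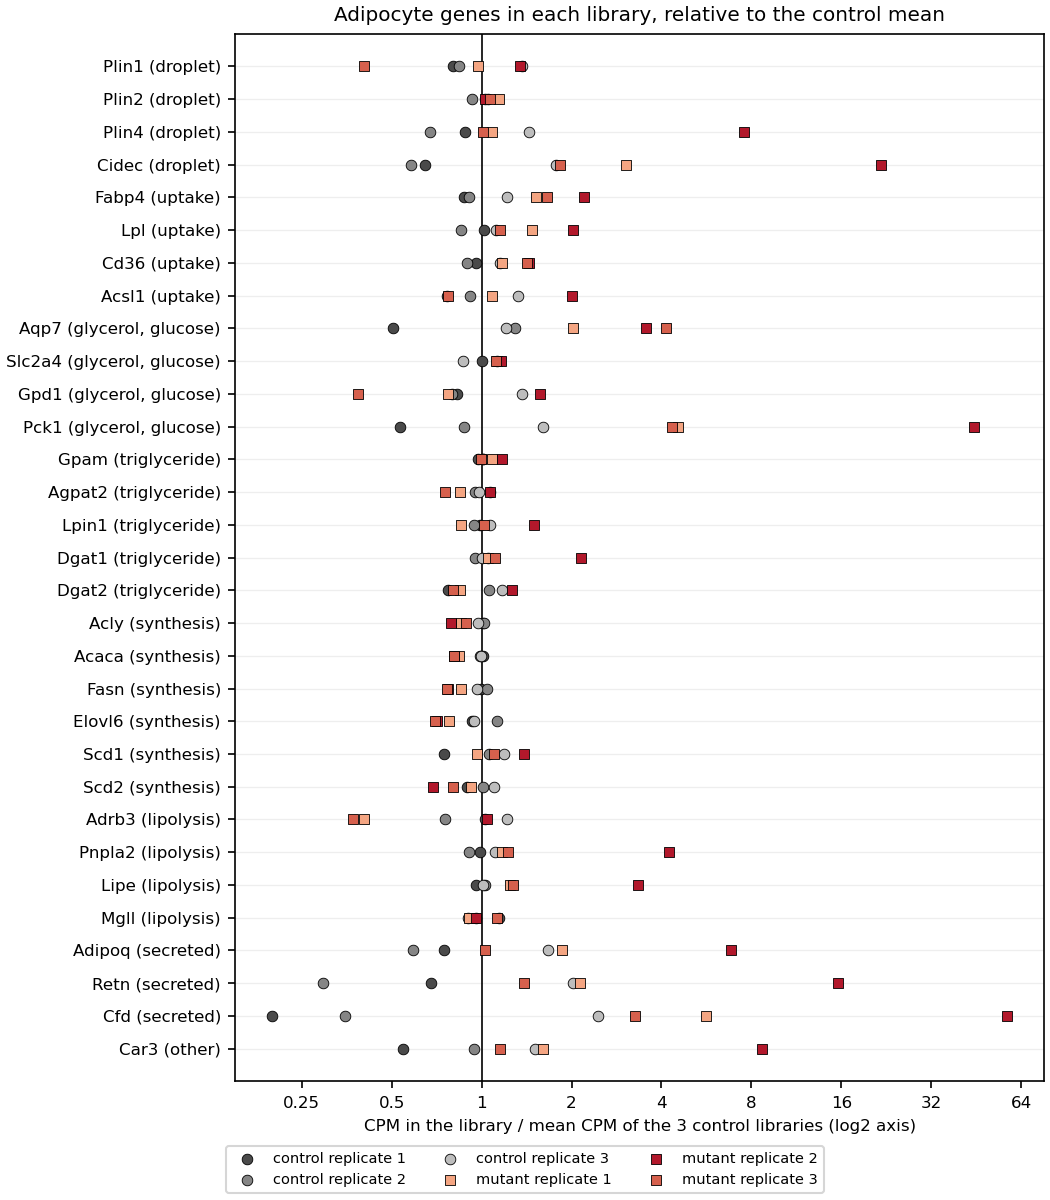
Each row is a tested gene of the list, and each point is the CPM of 1 library divided by the mean of the 3 control libraries, on a log2 axis (circles control, squares mutant). Mutant replicate 2 lies far to the right for Cfd, Pck1, Cidec, Retn, Car3 and Plin4, while Acly, Acaca, Fasn and Elovl6 have all 3 mutant libraries to the left of all 3 control libraries.

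The groups did not overlap in 14 tested members. All mutant libraries lay above all control libraries in 10 of 31 (32.3%, beside 19.2% of all tested genes) and below them in 4 (12.9%, beside 18.6%). The 4 below were the synthesis genes that were called. The 10 above were Cidec, Fabp4, Lpl, Cd36, Aqp7, Pck1, Dgat1, Pnpla2, Lipe and Cfd, and 3 of these were called. Some gaps were narrow. Dgat1 had 14.9 CPM after rounding in both control replicate 1 and mutant replicate 1. Cidec had 3.33 CPM in control replicate 3 and 3.43 CPM in mutant replicate 3. Members called or not overlapping came from every role except the gene held apart as other, Car3.

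**Figure D2:**
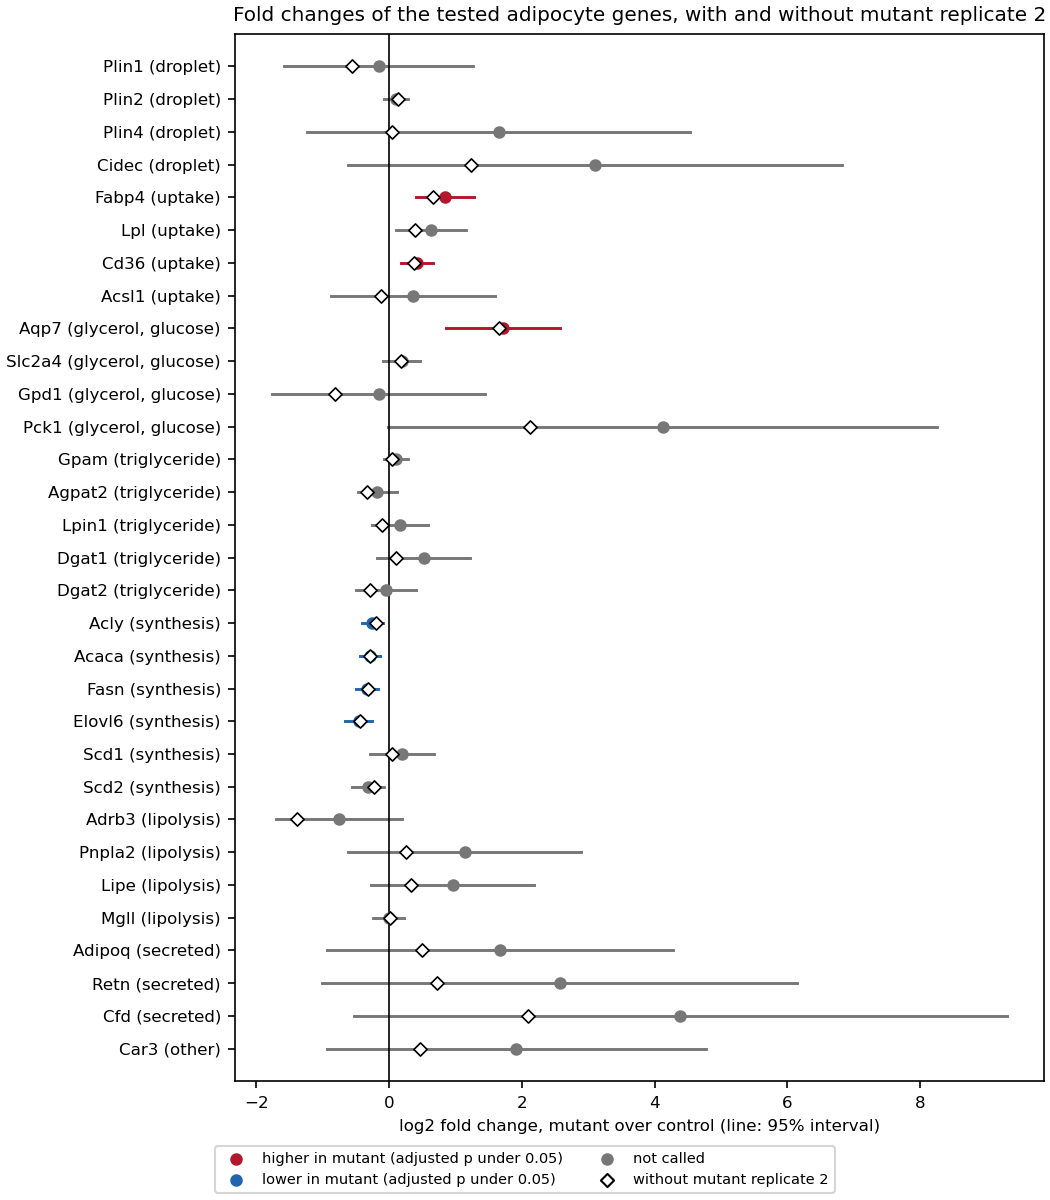
Points are log2 fold changes of mutant over control for the tested genes with 95% intervals as lines, and open diamonds are the same values without mutant replicate 2. Acly, Acaca, Fasn and Elovl6 have short intervals below 0, and Cfd, Pck1 and Cidec have the widest intervals and move furthest when that library is left out.

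To show the regulatory sequence that lies in front of genes that moved, the 250 bases upstream of a RefSeq start (build GRCm38.p6, whereas the counts use mm9) are given for Aqp7 (chr4:41048137-41048386, minus strand) and Cd36 (chr5:17835897-17836146, minus strand), which rose, and for Elovl6 (chr3:129532136-129532385, plus strand) and Fasn (chr11:120824548-120824797, minus strand), which fell. Capitals mark matches on either strand to the NF-Y box CCAAT.
Aqp7: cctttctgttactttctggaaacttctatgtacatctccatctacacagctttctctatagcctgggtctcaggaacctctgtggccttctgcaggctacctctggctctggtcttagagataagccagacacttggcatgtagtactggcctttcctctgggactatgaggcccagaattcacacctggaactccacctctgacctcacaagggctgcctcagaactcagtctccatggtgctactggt
Cd36: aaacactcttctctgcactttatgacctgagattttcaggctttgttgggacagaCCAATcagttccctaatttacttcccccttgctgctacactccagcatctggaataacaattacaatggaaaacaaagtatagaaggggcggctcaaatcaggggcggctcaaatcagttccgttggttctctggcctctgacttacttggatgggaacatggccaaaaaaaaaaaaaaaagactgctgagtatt
Elovl6: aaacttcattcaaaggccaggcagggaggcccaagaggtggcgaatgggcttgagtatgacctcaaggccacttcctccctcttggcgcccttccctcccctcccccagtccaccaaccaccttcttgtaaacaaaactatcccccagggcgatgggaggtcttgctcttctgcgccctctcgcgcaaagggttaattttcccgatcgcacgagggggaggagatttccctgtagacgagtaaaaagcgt
Fasn: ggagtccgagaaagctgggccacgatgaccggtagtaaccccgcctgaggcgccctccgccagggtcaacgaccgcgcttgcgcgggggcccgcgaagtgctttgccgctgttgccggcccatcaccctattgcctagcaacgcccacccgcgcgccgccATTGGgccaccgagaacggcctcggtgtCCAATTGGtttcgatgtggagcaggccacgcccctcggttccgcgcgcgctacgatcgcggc

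The Fasn window held 3 such boxes, of which 2 share bases, and the Cd36 window held 1. NF-Y is a ubiquitous factor that works beside SREBP at many lipid genes. The Aqp7 and Elovl6 windows held no match to any of the 6 motifs searched on both strands, which besides CCAAT were the PPAR direct repeat (AGGTCA, 1 free base, AGGTCA), the C/EBP half-site pair TTGCNNAA, the E-box CACGTG, the sterol element TCACNCCAC and TATAAA. The Fasn window was the richest in G and C of the 4 (69.2%), ahead of Elovl6 (56.4%), Aqp7 (50.8%) and Cd36 (43.2%). A window of Acaca, which also fell, is not printed. It held no match to the 6 motifs and was 39.2% G and C. Among 29 windows of 23 members, 8 held CCAAT (27.6%), beside 33.8% of 32851 windows of all genes. TTGCNNAA matched in 3 member windows (10.3%, beside 9.56%), CACGTG in 2 (6.9%, beside 6.02%) and TCACNCCAC in 1 (3.45%, beside 1.05%). No member window held the PPAR direct repeat or TATAAA, which matched in 0.0335% and 12.4% of all windows. A match is a run of letters and not a shown binding site.

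Fatty acid synthesis held all the falls of the list. Of its 6 tested genes 4 fell (66.7%, beside 9.13% of all tested genes) and none rose. None was higher at an unadjusted p under 0.05, with DESeq2 or with limma-voom. The steps run from ATP citrate lyase (Acly), which makes cytosolic acetyl-CoA, to acetyl-CoA carboxylase (Acaca), fatty acid synthase (Fasn) and the elongase ELOVL6, which lengthens palmitate. Acly, Acaca and Fasn all lie on chromosome 11, and Elovl6 on chromosome 3.

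Elovl6 (ENSMUSG00000041220) had 42.7, 51.8 and 43.3 CPM in control replicates 1 to 3 and 35.6, 32.6 and 32.2 CPM in mutant replicates 1 to 3. Control replicate 2 was the highest library, and the mutant libraries lay within a narrow range below every control. The mean went from 45.9 ± 5.06 to 33.5 ± 1.89 CPM (SD, n = 3 per group), a log2 fold change of -0.45 (95% interval -0.66 to -0.25, edgeR adjusted p = 0.00751). The call held in all 13 alternative settings, with adjusted p-values from 2.49e-05 to 0.0356.

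Fasn (ENSMUSG00000025153) had 248, 259 and 240 CPM in control and 213, 192 and 190 CPM in mutant libraries. Every mutant library was below every control library, and mutant replicate 1 was the nearest to them. The log2 fold change was -0.33 (95% interval -0.49 to -0.17, edgeR adjusted p = 0.0122). It was no longer called when control replicate 2 (adjusted p = 0.0554) or mutant replicate 3 (0.0606) was left out.

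Acaca (ENSMUSG00000020532) had 86.8, 85.0 and 85.8 CPM in control and 72.3, 69.2 and 69.5 CPM in mutant libraries. Libraries of a group differed by little, and the gap between the groups was several times that spread. This gave a log2 fold change of -0.29 (95% interval -0.44 to -0.14, edgeR adjusted p = 0.0152), and the call was lost without mutant replicate 3 (adjusted p = 0.0650).

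Acly (ENSMUSG00000020917) had 140, 142 and 135 CPM in control and 119, 110 and 123 CPM in mutant libraries. The groups did not overlap, and mutant replicate 2 was the lowest. Its log2 fold change was -0.25 (95% interval -0.40 to -0.09, edgeR adjusted p = 0.0344). This call was lost with upper quartile scaling (adjusted p = 0.0594) and without any 1 library other than control replicate 1 (largest 0.114).

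The stearoyl-CoA desaturases, which place the double bond in newly made fatty acids, were not called. Scd2, the form found in many tissues, had 388, 441 and 479 CPM in control and 401, 301 and 348 CPM in mutant libraries. Mutant replicate 1 lay within the control range and the other two mutant libraries below it. Its log2 fold change was -0.32 (95% interval -0.56 to -0.07, edgeR adjusted p = 0.0715), and it was called lower with DESeq2 (0.0268), with no filter (0.00269) and when replicate 1 of either group was left out (0.0188 for control, 0.0254 for mutant). Scd1, the main form of white fat and sebaceous gland, had 29.0, 41.0 and 46.0 CPM in control and 37.2, 53.8 and 42.6 CPM in mutant libraries (log2 fold change 0.20, 95% interval -0.28 to 0.68, edgeR adjusted p = 0.531). Per kilobase of exon, Scd2 was the highest of all members in control cells, at 79.8 CPM against 7.91 for Scd1. Thrsp had between 1 and 7 reads in every library.

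**Figure D3:**
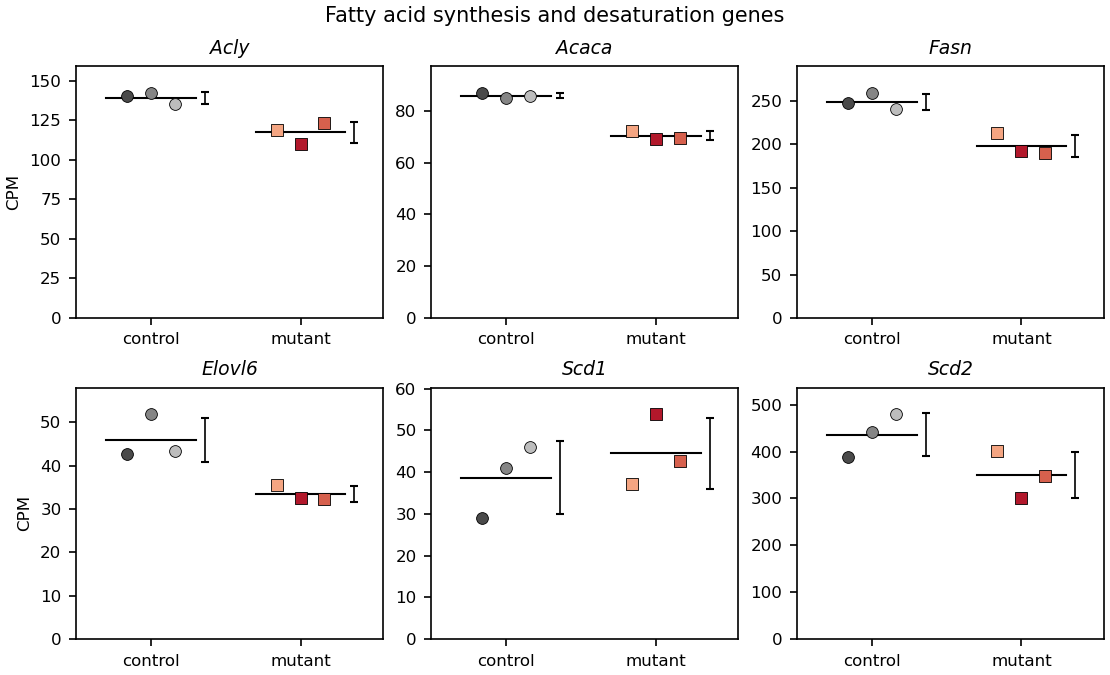
CPM of the 6 tested synthesis and desaturation genes, with replicates 1 to 3 from left to right in each group, horizontal lines at the means and bars of 1 SD. Acly, Acaca, Fasn and Elovl6 separate the groups, and Scd1 and Scd2 overlap.

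Of 4 genes of fatty acid uptake, binding and activation, Fabp4 and Cd36 rose in mutant cells (50.0%, beside 8.63% of all tested genes). Lpl and Acsl1 were not called. None of the 4 fell, with DESeq2 or limma-voom or at an unadjusted p under 0.05. Fabp4 (ENSMUSG00000062515, chromosome 3) encodes the fatty acid binding protein of fat cells, which macrophages and capillary endothelium also make. It had 112, 116 and 157 CPM in control and 196, 285 and 213 CPM in mutant libraries. Control replicate 3 was the highest control and mutant replicate 2 the highest mutant, and the groups did not overlap. The mean rose from 129 ± 24.7 to 231 ± 47.1 CPM (SD, n = 3 per group), a log2 fold change of 0.84 (95% interval 0.40 to 1.28, edgeR adjusted p = 0.0243). Without mutant replicate 2 the log2 fold change was 0.67 and the call held (adjusted p = 0.0199). The call was lost without control replicate 1 (0.0704), control replicate 2 (0.0675) or mutant replicate 3 (0.0646).

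Cd36 (ENSMUSG00000002944, chromosome 5), the fatty acid translocase, had 102, 95.2 and 122 CPM in control and 124, 153 and 151 CPM in mutant libraries. Mutant replicate 1 was barely above control replicate 3, and the other two mutant libraries stood clear of the controls. Its log2 fold change was 0.42 (95% interval 0.18 to 0.66, edgeR adjusted p = 0.0220), and the call was lost without control replicate 2 (0.0794), mutant replicate 2 (0.0661) or mutant replicate 3 (0.0811). Lpl, the lipase that frees fatty acids from lipoproteins, had 452, 378 and 495 CPM in control and 650, 891 and 507 CPM in mutant libraries. All mutant libraries lay above all controls, mutant replicate 3 by little. Its log2 fold change of 0.63 (95% interval 0.10 to 1.16) was not called (edgeR adjusted p = 0.102), and it was called without mutant replicate 3 (log2 fold change 0.80, adjusted p = 0.0152). Acsl1, which activates long-chain fatty acids, had 31.3 to 54.2 CPM in control and 31.5 to 82.3 CPM in mutant libraries and was not called (edgeR adjusted p = 0.652).

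Fabp4, Cd36 and Lpl were among the 5 members with the highest level per kilobase of exon. In mutant cells the order was Lpl at 65.2, Scd2 at 64.0, Fabp4 at 51.5, Cfd at 46.3 and Cd36 at 39.8 CPM per kilobase, and in control cells it was Scd2 at 79.8, Lpl at 42.1, Cd36 at 29.7, Fabp4 at 28.7 and Acly at 26.4. The Cfd value rests on mutant replicate 2. Neighbours in these orders were not tested against each other. Summed endothelial markers were 249, 222 and 326 CPM in mutant replicates 1 to 3. Fabp4 and Lpl were highest in mutant replicate 2, and Cd36 was nearly equal in mutant replicates 2 and 3 (153 and 151 CPM). Aqp7, the third riser, was highest in mutant replicate 3 (9.45 CPM). The part of endothelial cells in these values was not tested. Macrophage markers, of which none of 8 was called in either direction (1 higher and 0 lower at an unadjusted p under 0.05, none with DESeq2 or limma-voom), summed to 166 to 303 CPM in control and 213 to 252 CPM in mutant libraries.

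Transport of glycerol and glucose and the supply of glycerol 3-phosphate gave 1 rise among 4 tested genes. Of all tested genes 8.63% were called higher, and 1 call among 4 genes cannot describe the role as a whole. Aqp7 (ENSMUSG00000028427, chromosome 4), the channel through which fat cells release glycerol, had 1.15, 2.94 and 2.75 CPM in control and 4.63, 8.13 and 9.45 CPM in mutant libraries. Here mutant replicate 3 was the highest, and the groups did not overlap. The log2 fold change was 1.72 (95% interval 0.86 to 2.58, edgeR adjusted p = 0.0171), the largest among the called members, at 18 to 179 reads per library. It was 1.65 and not called in the fit that lacked mutant replicate 2 (adjusted p = 0.0575), and 1.90 and not called in the fit that lacked control replicate 3 (0.0517).

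**Figure D4:**
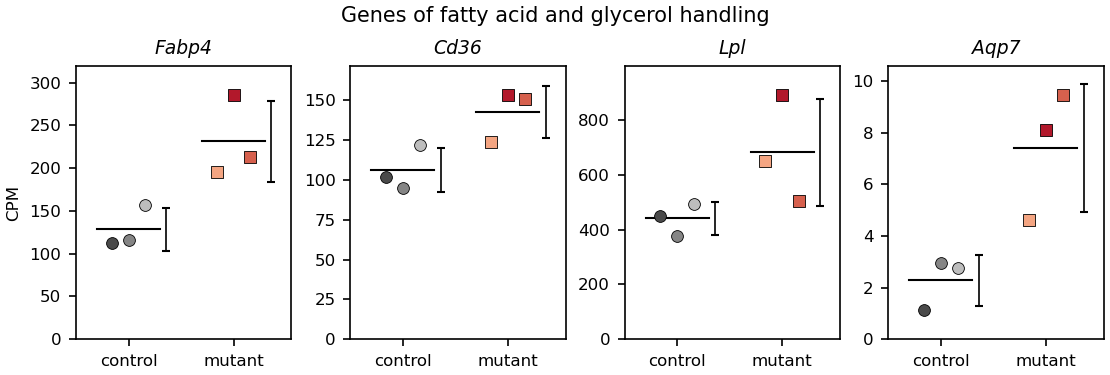
CPM of Fabp4, Cd36, Lpl and Aqp7, with replicates 1 to 3 from left to right in each group, horizontal lines at the means and bars of 1 SD. All mutant libraries lie above all control libraries in each of the 4 genes, and the Lpl and Cd36 groups nearly touch.

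Pck1 (ENSMUSG00000027513, chromosome 2), which in fat makes glycerol 3-phosphate from small precursors, had 0.512, 0.839 and 1.54 CPM in control and 4.36, 42.8 and 4.17 CPM in mutant libraries. Mutant replicate 2 was 9.81 times the next highest library, and the other two mutant libraries agreed closely and lay above every control. With all libraries the log2 fold change was 4.12 with a 95% interval of -0.01 to 8.25 and was not called (edgeR adjusted p = 0.153). Without mutant replicate 2 it was 2.13 and was called higher (adjusted p = 0.00313). Gpd1, which makes the same product from glycolysis, had 14.5, 13.9 and 24.0 CPM in control and 13.5, 27.4 and 6.76 CPM in mutant libraries (log2 fold change -0.15, 95% interval -1.76 to 1.45, edgeR adjusted p = 0.892). Its highest value was in mutant replicate 2 and its lowest in mutant replicate 3. Slc2a4, the insulin-responsive glucose transporter, had 9.86 to 12.8 CPM in control and 12.8 to 13.2 CPM in mutant libraries (log2 fold change 0.19, 95% interval -0.09 to 0.47, edgeR adjusted p = 0.327).

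Secreted adipokines and late fat cell genes were uneven among mutant libraries. Cfd (ENSMUSG00000061780, chromosome 10), the complement protease adipsin, had 0.384, 0.671 and 4.74 CPM in control and 10.9, 111 and 6.28 CPM in mutant libraries. All mutant libraries were above all controls, and mutant replicate 2 was 10.1 times the next highest. Its log2 fold change of 4.39 had a 95% interval of -0.53 to 9.31 (edgeR adjusted p = 0.188), DESeq2 called it higher (adjusted p = 0.0202), and without mutant replicate 2 it was 2.10 and not called (edgeR adjusted p = 0.328). Adipoq (ENSMUSG00000022878, chromosome 16), the gene of adiponectin, had 6.72, 5.29 and 15.0 CPM in control and 16.7, 61.8 and 9.29 CPM in mutant libraries. Control replicate 3 lay above mutant replicate 3, so the groups overlapped, and the log2 fold change of 1.67 (95% interval -0.94 to 4.28) was not called (edgeR adjusted p = 0.314). Retn, the gene of resistin, had 0.384, 0.168 and 1.15 CPM in control and 1.21, 8.84 and 0.792 CPM in mutant libraries (log2 fold change 2.57, 95% interval -1.01 to 6.15, edgeR adjusted p = 0.272). Its control values correspond to 2 to 18 reads, and only mutant replicate 2 stood clear of control replicate 3.

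The droplet proteins differed in how far mutant replicate 2 stood out. Cidec (ENSMUSG00000030278, chromosome 6), which fuses droplets, had 1.22, 1.09 and 3.33 CPM in control and 5.70, 41.0 and 3.43 CPM in mutant libraries, and Plin4, a droplet coat protein, had 2.31, 1.76 and 3.78 CPM in control and 2.82, 19.8 and 2.64 CPM in mutant libraries. Both peaked in mutant replicate 2, and neither was called (log2 fold changes 3.10 and 1.65, edgeR adjusted p = 0.211 and 0.365), though DESeq2 called Cidec higher (adjusted p = 0.0369). Plin1 (ENSMUSG00000030546, chromosome 7), the main droplet coat protein of mature fat cells, had no such peak above all other libraries. Within each group its highest library was the same as for Cidec and Plin4, replicate 2 among mutants and replicate 3 among controls. It had 28.8, 30.0 and 48.8 CPM in control and 34.9, 48.2 and 14.5 CPM in mutant libraries, so that mutant replicate 2 matched control replicate 3 and mutant replicate 3 was the lowest of the 6 (log2 fold change -0.15, 95% interval -1.58 to 1.27, edgeR adjusted p = 0.873). Plin2, the coat protein of most cell types, varied little, from 55.5 to 63.0 CPM in control and 61.6 to 68.3 CPM in mutant libraries (log2 fold change 0.11, 95% interval -0.07 to 0.28, edgeR adjusted p = 0.391). Cidea had 2 to 11 reads per library.

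Of the lipases, Pnpla2, which encodes ATGL and takes the first fatty acid off triglyceride, had 28.6, 26.1 and 31.9 CPM in control and 33.8, 122 and 35.5 CPM in mutant libraries. Lipe, which encodes hormone-sensitive lipase, had 10.6, 11.4 and 11.2 CPM in control and 13.8, 36.9 and 14.1 CPM in mutant libraries. In both, mutant replicates 1 and 3 were slightly above all controls and mutant replicate 2 was far above them. Their log2 fold changes were 1.14 and 0.96 with all libraries and 0.26 and 0.33 without mutant replicate 2, and neither was called in any setting tried (edgeR adjusted p = 0.311 and 0.240 with all libraries). An antisense gene shares 15.6% of the exon bases of Lipe, and with no strand setting stated, reads from the pair cannot be told apart. Another antisense gene shares 13.0% of those of Gpd1. Mgll, which finishes lipolysis, had 38.3 to 48.4 CPM in control and 38.4 to 47.8 CPM in mutant libraries (log2 fold change 0.00, 95% interval -0.24 to 0.23). Adrb3, the receptor that triggers lipolysis in rodent fat, had 0.755 to 1.22 CPM in control and 0.370 to 1.04 CPM in mutant libraries and was not called (log2 fold change -0.76, edgeR adjusted p = 0.251).

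Triglyceride assembly gave no call among 5 tested genes, with edgeR, DESeq2 or limma-voom, and none at an unadjusted p under 0.05. Gpam, the first acyltransferase, had 46.5 to 48.3 CPM in control and 47.4 to 55.7 CPM in mutant libraries (log2 fold change 0.11, 95% interval -0.07 to 0.29). Dgat1, which adds the last fatty acid, had 14.9, 13.4 and 14.1 CPM in control and 14.9, 30.4 and 15.7 CPM in mutant libraries, again with its peak in mutant replicate 2 (log2 fold change 0.52, edgeR adjusted p = 0.272). Agpat2, Lpin1 and Dgat2, which encode the steps between and the other final enzyme, had log2 fold changes from -0.18 to 0.16. Car3, a carbonic anhydrase abundant in fat and slow muscle, had 14.9, 25.8 and 41.4 CPM in control and 44.0, 238 and 31.5 CPM in mutant libraries (log2 fold change 1.92, 95% interval -0.93 to 4.77, edgeR adjusted p = 0.292).

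Mutant replicate 2 was the highest of the 6 libraries for 20 of 31 tested members (64.5%), beside 17.7% of all tested genes. Among the controls, replicate 3 was the highest for 20 of 31 (64.5%), beside 33.9% of all tested genes. Of all 15035 tested genes, 9 had at least 5 CPM in mutant replicate 2 and at least 4 times the CPM of any other library, and 6 of these 9 were members: Cfd, Pck1, Retn, Cidec, Car3 and Plin4. The remaining genes were Slc36a2, a transporter of small amino acids (6.18 CPM, against at most 0.845 in the others), Gm8730 (60.7 CPM against at most 1.79) and ENSMUSG00000090723 (39.8 CPM against at most 1.14), which matched no symbol. By the same rule 10 genes stood out in control replicate 1 and 1 in control replicate 3, none of them members, and 0 in each of the other libraries. Of 10 tested regulators of fat cell genes, 6 were also highest in mutant replicate 2, among them Klf15 (3.77 CPM, against at most 1.81 in the others). Pparg and Cebpa, which encode the main drivers of fat cell differentiation, were not. Among the mutant libraries alone both were highest in replicate 2, Cebpa by little. Pparg had 22.4, 19.6 and 31.9 CPM in control and 20.9, 23.1 and 15.7 CPM in mutant libraries (edgeR adjusted p = 0.334). Cebpa had 104, 98.1 and 104 CPM in control and 102, 103 and 88.4 CPM in mutant libraries (edgeR adjusted p = 0.625). Summed muscle (128 CPM), keratinocyte (945 CPM) and endothelial (222 CPM) markers of mutant replicate 2 were not above the range of the other two mutant libraries (119 to 180.3, 1095 to 1166 and 249 to 326 CPM). The part of any other cell type in mutant replicate 2 was not tested.

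**Figure D5:**
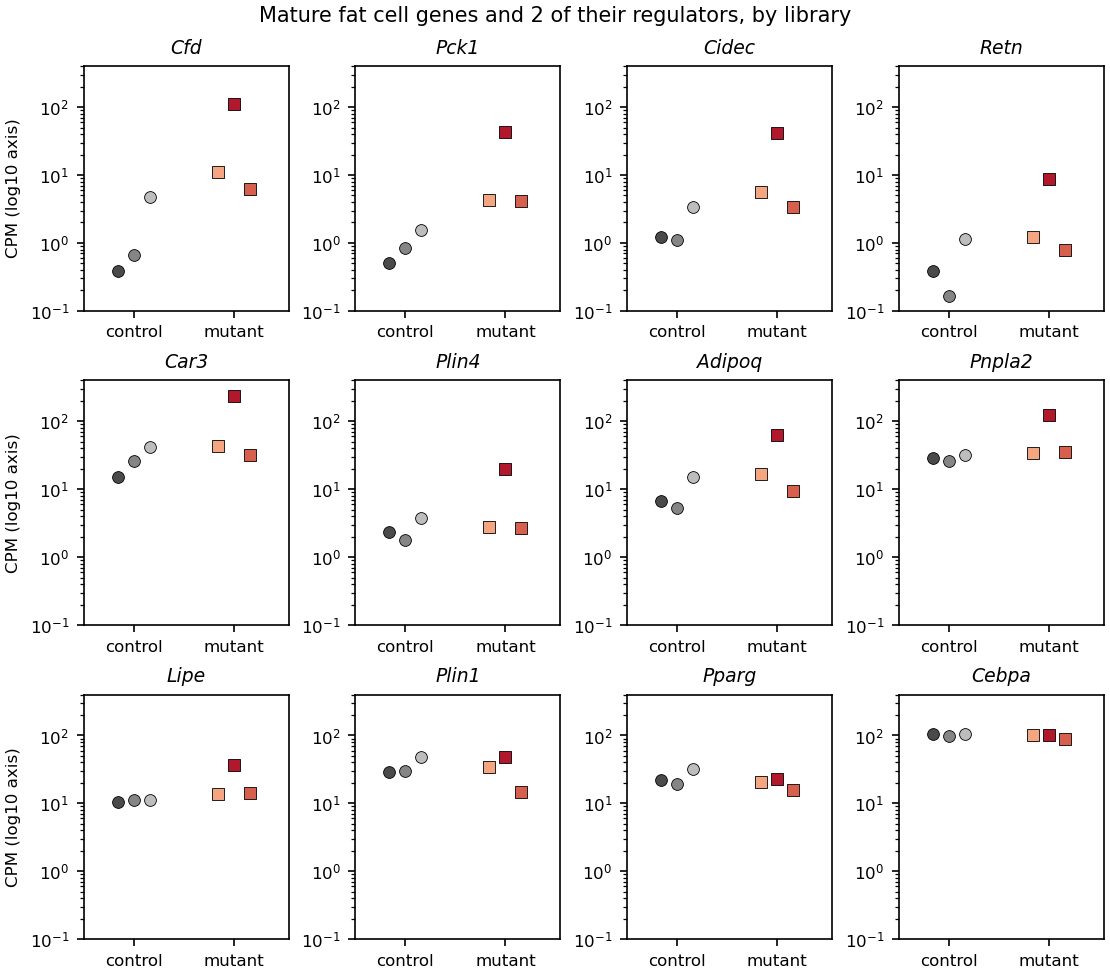
CPM on a log10 axis for 10 members and the regulators Pparg and Cebpa, with replicates 1 to 3 from left to right in each group. Mutant replicate 2 (middle square) is the highest point for the first 9 genes, from Cfd to Lipe, and not for Plin1, Pparg or Cebpa.

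Without mutant replicate 2, 2 members were called higher, Fabp4 and Pck1, and 3 lower, Acaca, Fasn and Elovl6. The background then was 6.30% called higher and 6.87% called lower. The log2 fold change of Plin4 was 0.04 in that fit, of Adipoq 0.50, of Car3 0.46 and of Retn 0.73, and none of these was called.

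Among 103 tested genes of lipid handling and its control outside the list, 7 rose (6.80%) and 7 fell (6.80%), both below the background shares. With upper quartile scaling the numbers were 12 and 5 (10% and 7.80% of all genes), and leaving out control replicate 3 they were 4 and 4 (4.44% and 5.27%). Leaving out control replicate 2 gave 4 falls. Of 16 further genes of droplets and lipolysis 1 rose and 1 fell (6.25% each, beside 8.63% and 9.13% of all tested genes). Fitm1, a droplet-forming protein best known in muscle, had 0.384 to 0.587 CPM in control and 1.28 to 1.95 CPM in mutant libraries (log2 fold change 1.70, edgeR adjusted p = 0.00709). Cav1, the coat protein of caveolae, had 739.7 to 795 CPM in control and 466 to 623 CPM in mutant libraries (log2 fold change -0.52, edgeR adjusted p = 0.00657). Of 13 further uptake genes Gpihbp1, which anchors lipoprotein lipase on capillary endothelium, rose by 1.20 on the log2 scale (edgeR adjusted p = 0.0473), and Acsl4 fell by 0.28 (edgeR adjusted p = 0.0497). Each is 7.69% of the 13. Gpihbp1 lost its call without any 1 library other than control replicate 2, and Acsl4 without any 1 library other than control replicate 1 (largest adjusted p = 0.119 and 0.170). Of 9 further genes of triglyceride assembly only Lpin3 was called (11.1%). It fell by 0.52 on the log2 scale, a call lost when any 1 library was left out (largest edgeR adjusted p = 0.129).

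The 17 tested further genes of fatty acid synthesis held no call with edgeR, DESeq2 or limma-voom, with 1 lower and 0 higher at an unadjusted p under 0.05. Srebf1, the gene of the factor that drives lipogenesis, also was not called (82.7 to 90.2 CPM in control and 79.4 to 86.4 CPM in mutant libraries, log2 fold change -0.07, edgeR adjusted p = 0.541). Among 10 tested regulators Klf15 and Rxra, the partner of PPARγ, rose and none fell (none with DESeq2 or limma-voom or at an unadjusted p under 0.05). Rxra had 120.5 to 126 CPM in control and 144 to 159 CPM in mutant libraries (log2 fold change 0.30, edgeR adjusted p = 0.0142). Its adjusted p was 0.0625 in the fit that lacked control replicate 2 and 0.0504 in the one that lacked mutant replicate 2.

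Receptors for fat cell hormones were lower where they were called. Of 12 receptor and insulin signalling genes 1 rose and 3 fell. Lepr, the leptin receptor, had 297, 217 and 279 CPM in control and 194, 153 and 170.2 CPM in mutant libraries (log2 fold change -0.62, edgeR adjusted p = 0.00977), a call lost without control replicate 3 (0.0521). Cdh13, which encodes T-cadherin, a binding partner of adiponectin, had 71.6, 64.9 and 65.9 CPM in control and 40.1, 30.4 and 40.0 CPM in mutant libraries (log2 fold change -0.87, edgeR adjusted p = 4.22e-04). In both genes every mutant library was below every control. Slc2a1, the widely used glucose transporter, fell by 0.51 and the insulin-signalling kinase gene Akt2 rose by 0.25 on the log2 scale. Each call was lost when control replicate 2, control replicate 3 or mutant replicate 1 was left out, and that of Akt2 also on leaving out mutant replicate 3 (largest adjusted p = 0.0742 for Slc2a1 and 0.105 for Akt2). Adipor1 and Adipor2 were not called (log2 fold changes 0.11 and 0.09).

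Of 9 other tested genes of secreted proteins of fat, 2 rose (22.2%, beside 8.63% of all tested genes) and 1 fell (11.1%, beside 9.13%). Angptl2 had 349 to 393 CPM in control and 478 to 572 CPM in mutant libraries (log2 fold change 0.49, edgeR adjusted p = 0.00378), and Rarres2, which encodes chemerin, had 38.0 to 50.7 CPM in control and 56.5 to 63.4 CPM in mutant libraries (log2 fold change 0.44, edgeR adjusted p = 0.0128). Rarres2 was no longer called when control replicate 3 (0.0517) or mutant replicate 1 (0.0505) was left out. Nampt, an enzyme of NAD synthesis that is also secreted, had 38.4 to 45.1 CPM in control and 29.4 to 33.2 CPM in mutant libraries (log2 fold change -0.44, edgeR adjusted p = 0.00770).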

How the data were processed

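Gene-level RNA-seq files of 6 libraries, 3 per genotype, were used. Their values are raw counts of reads as the authors deposited them, unnormalized. The submitters' processing notes name, without role or order, the build mm9, TopHat2 2.0.4, cutadapt 1.1, HTSeq 0.5.3, FastQC and DESeq2. The sources used here state no strand setting. Rows that name no gene took 36.9% to 41.7% of the reads and were left out. Symbols and exon lengths came from GENCODE M21, a later build, by gene identifier (86.6% of rows).

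After filterByExpr (minimum count 10, total 15) and TMM scaling, group was the only term of a robust quasi-likelihood F test (edgeR 4.0.16, R 4.3.3). The fit covered all genes and was tested on simulated data first. Groups of 3 cannot reach an exact two-sided permutation p under 0.1, so the test borrows its spread across genes. The labels' protocols name 3 mice per genotype and 6 RNA samples, and pairs within a group differed by more than counting noise (chi-square per degree of freedom 4.73 to 13.3).

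The members and lists were chosen with earlier results of these data known. Values per library are given for called members, the 7 defining markers, the 5 highest members per kilobase and those that a pattern rests on, of which the last were chosen after their values were seen. Other lists name at most 3 called genes each, or the most abundant, with others named after their values were seen. Alternatives were DESeq2 1.42.0, limma-voom (limma 3.58.1), other scalings and filters, each library left out and a replicate block.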

Additional observations from a re-analysis of the deposited data

How the results depend on the processing

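Without 1 library at a time, all genes called higher numbered 658 to 1199 and all genes called lower 753 to 1500, members called higher 1 to 3 and lower 1 to 5, further lipid genes 4 to 8 and 4 to 8, and the member median ran from 0.05 to 0.35. DESeq2 called 5 members higher. Further lipid genes called higher numbered 12 with upper quartile scaling and 11 with no filter, and 12 were called lower with no filter. With the replicate number as a block, members called were 3 higher and 4 lower, all genes 1328 and 1439, further lipid genes 8 and 7, and the median 0.21. Correlations of same-numbered deviations were 0.12, -0.03 and -0.09, beside -0.10 to 0.16 for differently numbered ones. No pairing was seen in them, though 3 libraries per group cannot exclude it. Of 403 values of single members under the alternatives, 17 lost a call and 8 gained one, and no called value changed sign. The other 378 kept their side of the threshold, counting as kept those without an adjusted p. DESeq2 gave no adjusted p for Pck1 and Adrb3. At 2 to 18 reads, Retn in controls is limited by depth.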

Other observations

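Of 17 tested genes of fatty acid oxidation none was called by edgeR (2 higher and 0 lower at an unadjusted p under 0.05), DESeq2 called none, and limma-voom called 1 higher. All mutant libraries lay above all controls in 6 of the 17 (35.3%, beside 19.2% of all tested genes). Etfb, which encodes a subunit of the electron transfer flavoprotein, had the highest level per kilobase of exon, with 59.7, 56.2 and 49.9 CPM in control and 68.5, 64.9 and 65.0 CPM in mutant libraries, and was not called by edgeR (log2 fold change 0.26) but was by limma-voom (adjusted p = 0.0497). Hadha, which had the highest CPM not divided by length and encodes a subunit of the mitochondrial trifunctional protein, had 134 to 141 CPM in control and 129 to 144 CPM in mutant libraries (log2 fold change -0.01, edgeR adjusted p = 0.938). Cpt1a, which admits fatty acids to mitochondria, had 109.5 to 125 CPM in control and 126 to 133 CPM in mutant libraries (log2 fold change 0.12, edgeR adjusted p = 0.277).

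Of 7 tested markers of brown and beige fat none was called by edgeR, DESeq2 or limma-voom, and none had an unadjusted p under 0.05. Ucp1, the uncoupling protein of brown fat, was at 0 reads in all control libraries and in mutant replicate 1 and had 3 and 5 reads in mutant replicates 2 and 3. The list summed to 108 to 139.9 CPM in control and 117 to 132 CPM in mutant libraries.

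Outside the list, Slc27a1, a fatty acid transporter, had 26.6, 27.7 and 28.5 CPM in control and 36.3, 76.8 and 37.3 CPM in mutant libraries, with its peak in mutant replicate 2 (log2 fold change 0.86, edgeR adjusted p = 0.173). Gpat3, Acacb and Pcx, chosen after their values were seen, had 7.80, 15.7 and 47.5 CPM in that library and at most 2.28, 7.71 and 24.3 CPM in any other.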
